A study of Mus musculus with 8 samples.

Results

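Precursors of regulatory T cells labelled Nr4a-TKO preTreg were compared with wild-type regulatory T cells, WT Treg, on 4 of the 8 arrays of the series. These 4 are all the arrays titled with those names, 2 biological replicates of each. Both populations were sorted from CD4 single-positive cells of the mouse thymus, which have kept CD4 and lost CD8, and were lysed fresh. WT Treg had a wild-type genotype and were positive for Foxp3. Nr4a-TKO preTreg carried the genotype given as Nr4a-TKO and were high in CD25, GITR and Nr4a3. Of the other 4 arrays, which serve for reference, 2 hold WT Tconv, wild-type CD4 single-positive cells low in CD25, and 2 hold Foxp3-KO preTreg, cells of Foxp3-KO genotype sorted on a Foxp3 reporter and high CD25. The sources used here do not give the age of the mice, nor which parts of the Nr4a genes were deleted and how. The 8 samples hold no wild-type precursors, so genotype, stage and sort gate cannot be told apart in this comparison. The gates themselves select on Foxp3 or its reporter, on Nr4a3, and on the products of Il2ra (CD25) and Tnfrsf18 (GITR).

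Nr4a1, Nr4a2 and Nr4a3 encode orphan nuclear receptors that T cells switch on soon after their antigen receptor is engaged, and that bind DNA as monomers at the NBRE, the letters AAAGGTCA. In the thymus they are known for their part in the fate of self-reactive cells, which can be deleted or can become regulatory T cells. Regulatory T cells suppress immune responses and are defined by the transcription factor Foxp3. Their thymic precursors carry the IL-2 receptor chain CD25 and the TNF receptor GITR and switch on Foxp3 in response to IL-2, acting through STAT5.

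Of 13176 genes tested out of 21154 with a symbol on the array, 12076 were above background on all 4 arrays. Values are log2 signals relative to the 75th percentile of each array, so a signal of 0 is a fairly bright gene, and pairs of values are given in the order replicate 1, replicate 2. Replicates correlated at r = 0.99 in WT Treg and 0.991 in Nr4a-TKO across genes, which are not independent replicates, and the median SD of a gene was 0.0769 and 0.0937 log2 units. It was 0.135 in Foxp3-KO, whose arrays enter the same fit, so the SE of a gene that varies there is wide. The Nr4a-TKO arrays lay in row 1 of the slide with WT Tconv, and the WT Treg arrays in row 2 with Foxp3-KO, so slide row and group cannot be told apart. In bulk RNA, fewer cells that express a gene and less of its RNA per cell cannot be told apart either. Between 49% and 52.1% of probes were well above background on the 4 arrays, and the 75th percentile was 7.97 to 8.91 times the background signal. With 2 arrays a group, the number of arrays limits the precision.

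Defining T cell genes were bright in both populations. Cd3e, a signalling chain of the antigen receptor complex, read 6.91 and 6.98 on the WT Treg arrays and 7.03 and 7.13 on the Nr4a-TKO arrays. The coreceptor gene Cd4 read 5.0 and 5.06 on the WT Treg arrays and 5.08 and 5.11 on the Nr4a-TKO arrays, and the kinase gene Lck 8.19 and 8.25 on the WT Treg arrays and 8.17 and 8.22 on the Nr4a-TKO arrays. None of the 3 passed the test, with adjusted p from 0.19 to 0.855. Among 12 T cell identity markers 2 passed the test as higher and 4 as lower in Nr4a-TKO (median -0.11). 1 member was higher with any 1 array left out, and 1 was higher in the fit of the 2 groups alone. The surface gene Thy1 rose (1.22 ± 0.19, adjusted p = 0.00741), while Trat1 (-1.89 ± 0.19, adjusted p = 0.00208), which helps hold the receptor complex at the surface, and the inhibitory receptors Cd5 (-1.0 ± 0.13, adjusted p = 0.00411) and Cd6 (-0.70 ± 0.11, adjusted p = 0.00766) fell. The signals of the 12 markers summed to 1378 and 1422 times the 75th percentile on the Nr4a-TKO arrays and to 1525 and 1506 on the WT Treg arrays.

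The genes that the label and the gates name did not move together. Nr4a2 read 1.60 and 1.79 on the WT Treg arrays and 3.72 and 3.87 on the Nr4a-TKO arrays, with Foxp3-KO at 1.86 and 1.26 and WT Tconv at -1.51 and -1.56, so both Nr4a-TKO arrays lay above the other 6. A second Nr4a2 probe read 0.11 and 0.25 on the WT Treg arrays and 2.32 and 2.40 on the Nr4a-TKO arrays, the same order. Nr4a1 read 7.28 and 7.62 on the WT Treg arrays and 7.73 and 7.96 on the Nr4a-TKO arrays, a gap that did not pass the test (0.40 ± 0.19, adjusted p = 0.144). Nr4a3, on which the precursors were gated, read -0.36 and 1.01 on the WT Treg arrays and -0.42 and -0.12 on the Nr4a-TKO arrays, and the groups overlapped (adjusted p = 0.336). The probes are no check of genotype, since they may sit outside the deleted parts, which are not known. Il2ra, the CD25 gene, read 5.89 and 5.80 on the WT Treg arrays and 6.20 and 5.69 on the Nr4a-TKO arrays, overlapping between groups (0.10 ± 0.23, adjusted p = 0.749). Tnfrsf18, the GITR gene, was slightly lower, at 7.17 and 7.12 on the WT Treg arrays and 6.74 and 6.5 on the Nr4a-TKO arrays (-0.52 ± 0.11, adjusted p = 0.0186). Tnfrsf18 lost the call without Nr4a-TKO replicate 2 or either WT Treg array, with adjusted p of up to 0.082.

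A difference is given here as the log2 signal of Nr4a-TKO minus WT Treg ± SE from limma, and a called gene has an adjusted p under 0.05. Across the array 4826 genes were called (36.6% of those tested), 2678 higher and 2148 lower in Nr4a-TKO. Among genes above background on all 4 arrays 90 called genes were at least 8-fold higher and 22 at least 8-fold lower, and 780 and 451 at least 2-fold. With arrays scaled by their median instead of the 75th percentile 67.8% of the calls were higher, against 55.5%. Without WT Treg replicate 2 1249 genes were higher and 934 lower, and without WT Treg replicate 1 1512 and 988. The counts were 1311 and 1016 without Nr4a-TKO replicate 1 and 1788 and 1368 without replicate 2. A gene that passed the filter through Nr4a-TKO alone was selected for its signal there, which favours a higher value in Nr4a-TKO. Lists are therefore counted over the genes above background on all 4 arrays, of which 18.7% were called higher and 16.9% lower, with a median of -0.01. These shares are the background for every list that follows. Where a list's count moved by more than 1.5 times with 1 array left out, the counts are given in the order without Nr4a-TKO replicate 1, without its replicate 2, without WT Treg replicate 1 and without its replicate 2, and the array left alone in its group is then taken to vary like the other groups. Of the 935 genes tested through Nr4a-TKO alone 422 were called. Where a group was undetected, "at least" gives the fold over the higher of the gene's own signal there and the lowest detected signal of the array. That lowest signal was -4.34 and -4.01 on the WT Treg arrays. A probe can go undetected above it, so the true fold can be smaller than the one given. The lists were chosen with results of these data known, and no list was tested as a set.

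**Figure D1:**
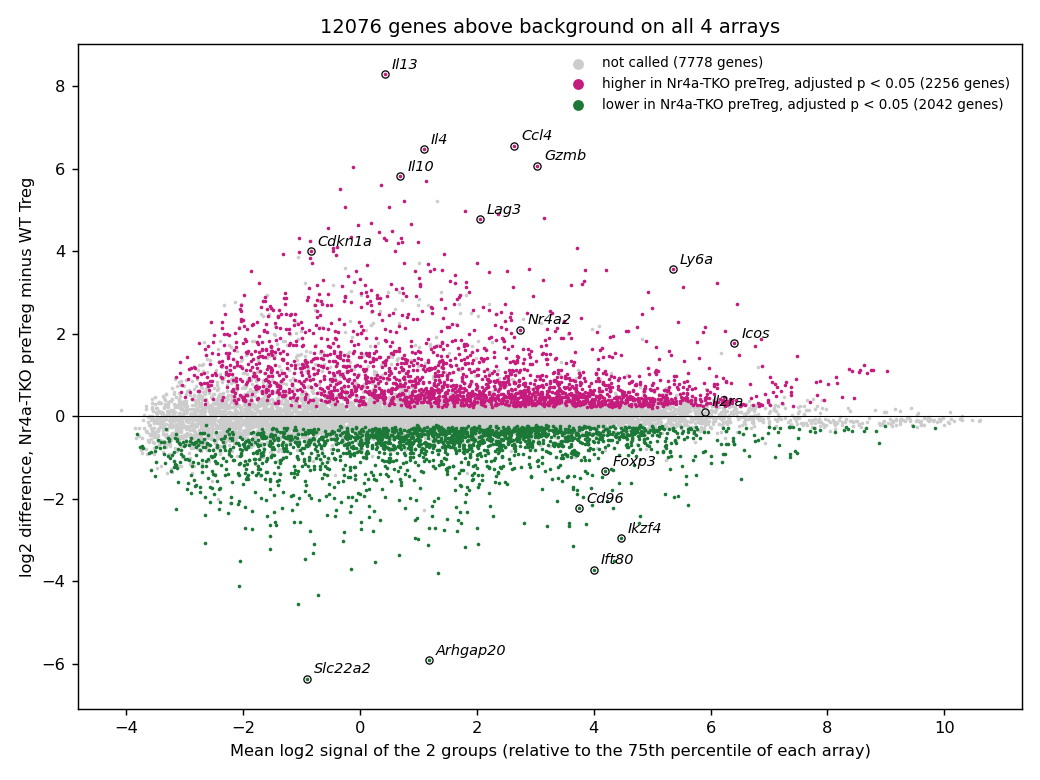
Each point is a gene above background on all 4 arrays, with the mean log2 signal of both groups on the x axis and the log2 difference, Nr4a-TKO preTreg minus WT Treg, on the y axis. Coloured points passed the test, and Il13 and Il4 lie at the top while Slc22a2 and Arhgap20 lie at the bottom.

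Genes that define regulatory T cells split between loss and gain. Of 33 such genes above background on all 4 arrays 9 fell and 6 rose in Nr4a-TKO (median -0.21). 1, 2, 1 and 2 members rose and 10, 7, 4 and 5 fell with 1 array left out. Foxp3 read 5.0 and 4.72 on the WT Treg arrays and 3.80 and 3.25 on the Nr4a-TKO arrays, and the Nr4a-TKO arrays lay between WT Treg and the Foxp3-KO arrays, at 1.97 and 1.74. The difference from Foxp3-KO was 1.67 ± 0.23, adjusted p = 0.00631. Its neighbouring non-coding gene Flicr read 0.55 and 0.71 on the WT Treg arrays and -1.05 and -2.49 on the Nr4a-TKO arrays and fell (-2.40 ± 0.47, adjusted p = 0.0142). Ikzf4, which encodes the Ikaros family repressor Eos, fell from 5.99 and 5.90 in WT Treg to 3.23 and 2.73 in Nr4a-TKO (-2.96 ± 0.17, adjusted p = 0.000549). In Foxp3-KO it stood at 5.21 and 5.33, between them. Ikzf2, encoding Helios of the same family, went from 5.04 and 4.94 to 3.88 and 3.48 (-1.31 ± 0.15, adjusted p = 0.00304), below both Foxp3-KO arrays at 4.66 and 4.74. Lrrc32, whose product GARP anchors latent TGF-beta, read 6.40 and 6.30 on the WT Treg arrays and 5.03 and 3.74 on the Nr4a-TKO arrays (-1.97 ± 0.49, adjusted p = 0.0285). The orphan receptor gene Gpr83 (-1.94 ± 0.22) and the Rac-signalling gene Swap70 (-1.36 ± 0.24) fell too.

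Other genes of the same list rose. Icos, a costimulatory receptor of effector and regulatory T cells, read 5.45 and 5.58 on the WT Treg arrays and 7.37 and 7.21 on the Nr4a-TKO arrays (1.77 ± 0.13, adjusted p = 0.000874), and both Nr4a-TKO arrays lay above the other 6. Ctla4, the co-inhibitory receptor through which regulatory T cells strip ligands from antigen-presenting cells, read 2.25 and 2.60 on the WT Treg arrays and 4.17 and 3.68 on the Nr4a-TKO arrays (1.5 ± 0.33, adjusted p = 0.0207). The protease inhibitor gene Cst7 (3.18 ± 0.87), the cytokine-signal inhibitor Socs2 (1.69 ± 0.51) and Izumo1r (0.37 ± 0.09), the folate receptor of regulatory T cells, rose with it. Several members showed little difference. The enkephalin precursor Penk read 4.86 and 5.18 on the WT Treg arrays and 5.73 and 5.05 on the Nr4a-TKO arrays (0.37 ± 0.54), against -6.14 and -6.27 in WT Tconv. The cytokine subunit gene Ebi3 differed by -0.22 ± 0.47, Cd83 by -0.23 ± 0.30, and the TNF receptor Tnfrsf4 (OX40) by -0.26 ± 0.12, none of which passed the test. 11 of the 33 members had both Nr4a-TKO arrays above the other 6 and 0 had both below, where the shares of all genes were 18.4% and 22.5%. The other 6 include WT Tconv, and 28 of the 33 members were higher in WT Treg than there. The 0 therefore follows largely from the choice of list, and the shares of all genes are no fair background for these 2 counts. Flicr and Swap70 lost the call without either WT Treg array, with adjusted p of up to 0.0717, and Cst7 and Socs2 did so without any 1 of the 4 arrays (up to 0.204). Foxp3 lost it without WT Treg replicate 1 (up to 0.0556), and Lrrc32 did so without Nr4a-TKO replicate 2 or either WT Treg array (up to 0.105). Ctla4 lost it without Nr4a-TKO replicate 1 or either WT Treg array (up to 0.101), and Izumo1r did so without either Nr4a-TKO array or WT Treg replicate 1 (up to 0.129).

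The largest decreases among genes above background on all 4 arrays were in a transporter and a GTPase-activating gene. Slc22a2, an organic cation transporter, read 2.10 and 2.43 on the WT Treg arrays and -3.91 and -4.28 on the Nr4a-TKO arrays (-6.36 ± 0.17, adjusted p = 0.000129). Arhgap20, a GTPase-activating gene, read 4.28 and 3.99 on the WT Treg arrays and -2.05 and -1.51 on the Nr4a-TKO arrays (-5.92 ± 0.20, adjusted p = 0.000225). In both, the Nr4a-TKO arrays were closer to WT Tconv than to WT Treg, with WT Tconv at -4.39 and -4.27 for Slc22a2 and -2.44 and -2.34 for Arhgap20, while the Foxp3-KO arrays were closer to WT Treg, at 1.48 and 1.37 and 4.13 and 4.22. The glutathione transferase Gsta4 (-4.33 ± 0.12, adjusted p = 0.000132) and the adhesion molecule P-selectin, Selp (-3.52 ± 0.19, adjusted p = 0.000516), were arranged likewise. So was Ift80, a gene of transport in cilia, which read 5.79 and 5.93 on the WT Treg arrays and 2.23 and 2.04 on the Nr4a-TKO arrays (-3.72 ± 0.15, adjusted p = 0.000318) beside 2.34 and 2.28 in WT Tconv. The iron reductase Cybrd1 (-4.11 ± 0.21, adjusted p = 0.000469) fell in the same range. Others of the 15 largest decreases fell below WT Tconv as well. Pyroxd2 read 0.86 and 1.56 on the WT Treg arrays and -3.88 and -2.81 on the Nr4a-TKO arrays, against 2.15 and 2.14 in WT Tconv, and the matrix protease gene Mmp11 2.06 and 2.0 on the WT Treg arrays and -1.13 and -1.91 on the Nr4a-TKO arrays, against 1.33 and 1.41. The remaining 7, Drc1, Galnt14, Gm4956, Sh3bgrl2, Actg2, Igsf3 and Fam163b, had differences of -3.81 to -3.22. Galnt14 lost the call without Nr4a-TKO replicate 2 or either WT Treg array, with adjusted p of up to 0.0538.

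Some genes were well above background in WT Treg and undetected on both Nr4a-TKO arrays. Lad1, a gene of the epithelial basement membrane, read 2.62 and 2.32 in WT Treg and was at least 121-fold lower in Nr4a-TKO (adjusted p = 0.000129). The phospholipase gene Pla2g4f was at least 68.3-fold lower, C1ql3 at least 21.2-fold, the cardiac troponin gene Tnnt2 at least 20.3-fold and the guanylate cyclase subunit Gucy1b1 at least 13.7-fold. On the Foxp3-KO arrays Lad1 read 1.84 and 2.38 and C1ql3 0.25 and -0.22, against -0.04 and -0.05 for C1ql3 in WT Treg. Of 82 genes undetected in Nr4a-TKO with a bound 77 were called lower, and of 527 undetected in WT Treg with a bound 327 were called higher. Over all genes tested 36.6% were called. The filter let in 165 genes through WT Treg alone and 935 through Nr4a-TKO alone, which favours a higher value in the group that let them in. The counts are therefore no measure of which direction was more common.

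**Figure D2:**
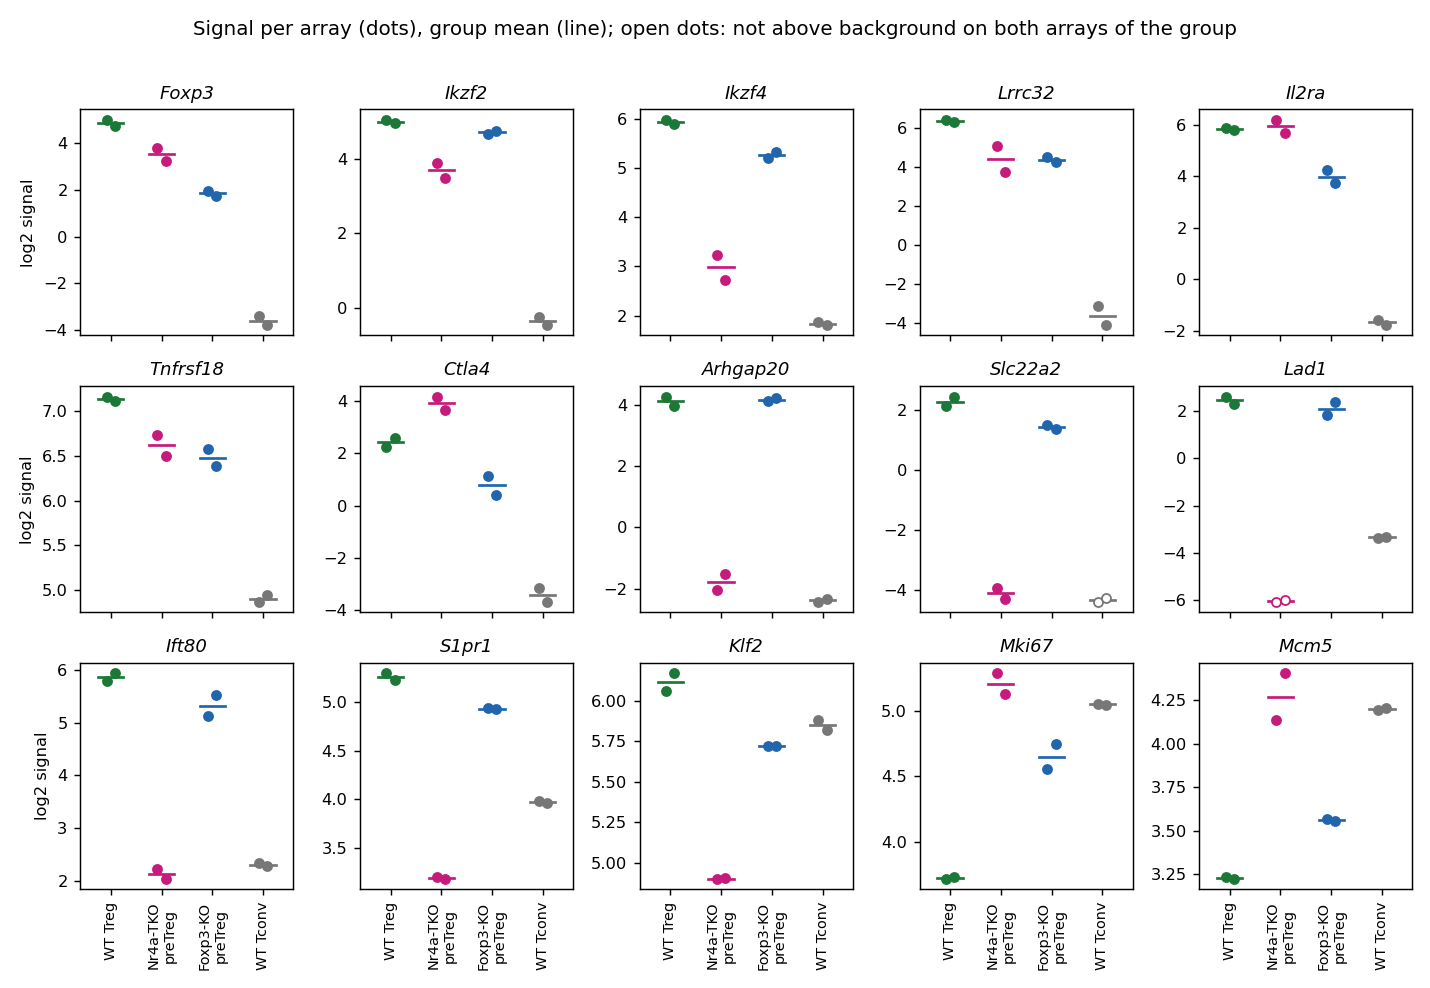
Points show the log2 signal on each of the 8 arrays for 15 genes, with a bar at the mean of the 2 arrays of a group and open points where a group was not above background on both arrays. Arhgap20, Slc22a2, Lad1 and Ift80 lie far lower on the Nr4a-TKO arrays than on the WT Treg and Foxp3-KO arrays, Foxp3 lies between those 2 groups, and Il2ra overlaps with WT Treg.

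Cytokine genes of several helper lineages were high in Nr4a-TKO. Of 12 helper cytokine genes above background on all 4 arrays 7 rose and 1 fell (median 2.31), and 9 more were above background on both arrays of Nr4a-TKO alone. 4 members rose with any 1 array left out. The type 2 cytokines were among them. Il13, which acts on epithelia and smooth muscle, read -3.68 and -3.77 on the WT Treg arrays and 4.63 and 4.5 on the Nr4a-TKO arrays, a difference of 8.29 ± 0.10, adjusted p = 9.37e-06, and was the largest increase of all genes above background on all 4 arrays. Il4, the cytokine of B cell help and type 2 differentiation, read -2.42 and -1.88 on the WT Treg arrays and 4.73 and 3.93 on the Nr4a-TKO arrays (6.48 ± 0.41, adjusted p = 0.000672). Il5, which drives eosinophils, read 2.35 and 2.18 in Nr4a-TKO and was at least 87-fold higher than in WT Treg, where it was undetected (adjusted p = 0.000477). It passed the filter through Nr4a-TKO alone, which favours a higher value there. WT Tconv had -0.74 and -0.53 for Il13 and 1.47 and 1.48 for Il4, below Nr4a-TKO and above WT Treg, and Foxp3-KO had -3.21 and -3.31 and -0.24 and -1.21. Both Nr4a-TKO arrays therefore stood above the other 6 for Il13 and Il4.

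Cytokines outside the type 2 group were raised too. Il17a, the type 17 cytokine, read 2.64 and 2.90 in Nr4a-TKO and was at least 123-fold higher (adjusted p = 0.00748), and its relative Il17f at least 12.5-fold higher (adjusted p = 0.00839). Il6, an inflammatory cytokine, was at least 36.8-fold higher, the myeloid growth factor Csf2 at least 3.48-fold and Il22 at least 1.51-fold, all undetected in WT Treg. Il17a, Il17f, Il6, Csf2 and Il22, and Il21 and Il2 below, passed the filter through Nr4a-TKO alone, which favours a higher value there. Il10, an anti-inflammatory cytokine of regulatory and effector cells, read -2.59 and -1.86 on the WT Treg arrays and 3.87 and 3.33 on the Nr4a-TKO arrays (5.82 ± 1.33, adjusted p = 0.0224), with Foxp3-KO at -1.73 and -6.11. Il21, which helps B cells, read -3.21 and -5.95 on the WT Treg arrays and 3.99 and 3.44 on the Nr4a-TKO arrays. Il2, the T cell growth factor, read -3.54 and -3.89 on the WT Treg arrays and 1.16 and 1.47 on the Nr4a-TKO arrays, and both were above background on 1 of 2 WT Treg arrays. The tissue-repair factor Areg (3.41 ± 0.76, adjusted p = 0.0209) and the macrophage growth factor Csf1 (3.27 ± 0.76, adjusted p = 0.0234) rose, and Tnf (1.35 ± 0.18, adjusted p = 0.00468) and Lif (0.80 ± 0.08, adjusted p = 0.00219) rose less. Lta, encoding lymphotoxin alpha, fell slightly (-0.36 ± 0.11, adjusted p = 0.0486). Ifng, the type 1 cytokine, read -0.85 and -0.86 on the WT Treg arrays and 2.93 and 2.79 on the Nr4a-TKO arrays and did not pass (3.71 ± 1.44, adjusted p = 0.0945), with Foxp3-KO at 2.79 and -2.04. In a fit of the 2 groups alone it passed (3.71 ± 0.09, adjusted p = 0.00167). Across all 258 named genes that fit ended 24 calls and added 9. Ltb (-0.22 ± 0.09), Osm (0.09 ± 0.12) and Xcl1 (1.11 ± 0.65) did not pass. Csf2, Il10, Areg, Csf1 and Il2 lost the call without any 1 of the 4 arrays, with adjusted p of up to 0.128, and Il22 did so without Nr4a-TKO replicate 1 or either WT Treg array (up to 0.146). Lta lost it without either Nr4a-TKO array or WT Treg replicate 1 (up to 0.181).

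**Figure D3:**
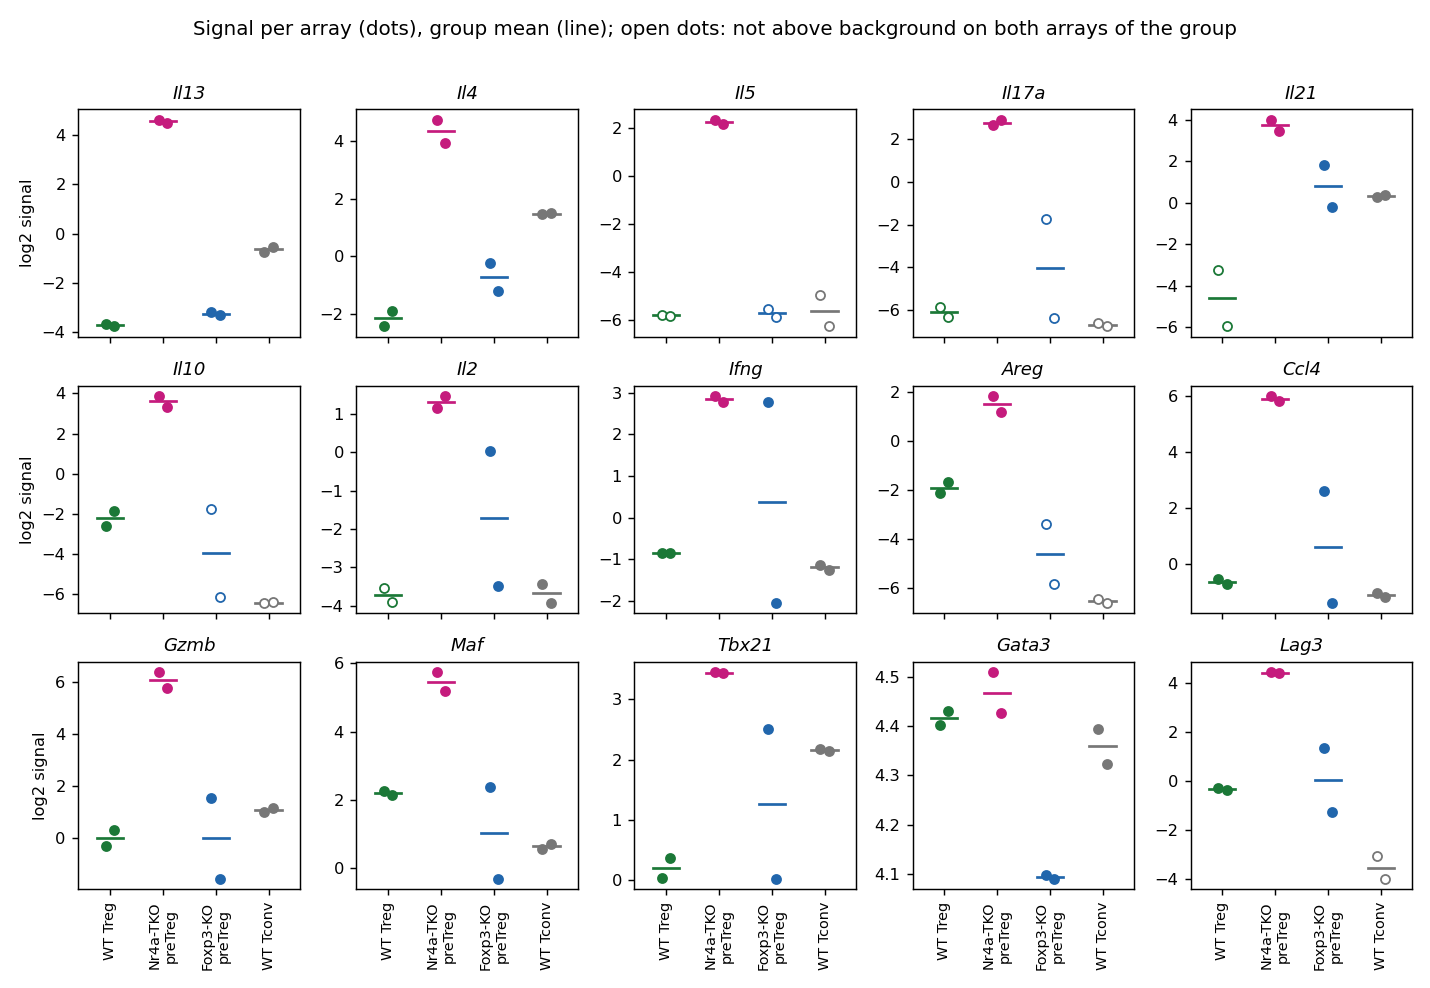
Points show the log2 signal per array for 15 genes of cytokines, chemokines, granules, helper transcription factors and Lag3, with a bar at the group mean and open points where a group was not above background on both arrays. For Il13, Il5 and Il17a both Nr4a-TKO arrays lie above all 6 others, while Gata3 overlaps between Nr4a-TKO and WT Treg and Ifng is also high on 1 Foxp3-KO array.

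Transcription factors of helper lineages rose in number, without the type 2 factor. Of 19 above background on all 4 arrays 13 were higher and 1 lower (median 1.39). 7, 8, 7 and 7 members were higher with 1 array left out. Tbx21, the factor T-bet of type 1 cells, read 0.04 and 0.36 on the WT Treg arrays and 3.45 and 3.43 on the Nr4a-TKO arrays (3.24 ± 0.75, adjusted p = 0.0229). Gata3, the factor of type 2 cells, read 4.40 and 4.43 on the WT Treg arrays and 4.51 and 4.43 on the Nr4a-TKO arrays and did not differ detectably (0.05 ± 0.07, adjusted p = 0.587). Maf, which promotes Il4, Il10 and Il21, read 2.24 and 2.14 on the WT Treg arrays and 5.74 and 5.19 on the Nr4a-TKO arrays (3.27 ± 0.83, adjusted p = 0.0296). Prdm1, encoding the effector regulator Blimp1 (2.83 ± 0.53, adjusted p = 0.0129), Nfil3 (2.54 ± 0.72, adjusted p = 0.0414), Bhlhe40 (1.84 ± 0.42, adjusted p = 0.022) and the partners Batf (1.54 ± 0.18, adjusted p = 0.0033) and Irf4 (1.39 ± 0.07, adjusted p = 0.000468) of antigen-driven effector programmes rose. Runx3 (1.53 ± 0.20), the hypoxia factor Hif1a (1.12 ± 0.16), the aryl hydrocarbon receptor Ahr (1.09 ± 0.27) and Runx1 (0.62 ± 0.07) rose less, although another Ahr probe gave -0.05 ± 0.43 (adjusted p = 0.937). The follicular helper factor Bcl6 read 3.98 and 4.15 on the WT Treg arrays and 4.18 and 3.54 on the Nr4a-TKO arrays (adjusted p = 0.481) and Zbtb7b, encoding ThPOK of the CD4 lineage, 5.88 and 5.81 on the WT Treg arrays and 5.51 and 5.63 on the Nr4a-TKO arrays (adjusted p = 0.235), neither passing. Tox, a factor of thymic selection, fell (-0.53 ± 0.07, adjusted p = 0.00536). Tbx21, Maf, Nfil3, Bhlhe40 and Ahr lost the call without any 1 of the 4 arrays, with adjusted p of up to 0.158, and Prdm1 did so without Nr4a-TKO replicate 1 or either WT Treg array (up to 0.0683).

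Chemokines and cell-contact effectors were higher too. Ccl8, a chemokine for monocytes and type 2 cells, had the largest bound of the comparison, at least 1323-fold higher, with 7.11 and 5.28 in Nr4a-TKO and no detection in WT Treg (adjusted p = 0.00261). Like Slpi and Retnla below, Ccl8 was higher on Nr4a-TKO replicate 1, which had the larger B cell and macrophage marker sums. The part of those cells in Ccl8 was not tested. Ccl8, and Ccl3 below, passed the filter through Nr4a-TKO alone, which favours a higher value there. The inflammatory chemokine Ccl3 was at least 203-fold higher, and its neighbour Ccl4 read -0.57 and -0.73 on the WT Treg arrays and 6.01 and 5.82 on the Nr4a-TKO arrays (6.56 ± 1.20, adjusted p = 0.0117). 4 of 8 chemokine genes above background on all 4 arrays rose and 0 fell (median 1.76), Cxcl10 (2.58 ± 0.55, adjusted p = 0.0187), Cxcl9 and Cxcl16 among them. 0, 2, 2 and 1 members rose with 1 array left out, and 7 rose in the fit of the 2 groups alone. Ccl1, the ligand of Ccr8, read -1.22 and -1.38 on the WT Treg arrays and 3.93 and 3.93 on the Nr4a-TKO arrays and did not pass (adjusted p = 0.116), with Foxp3-KO at 2.58 and -4.75. The fit of the 2 groups alone gave adjusted p = 0.00156. Of 8 TNF superfamily ligands 5 rose and 0 fell (median 1.77). 2, 2, 2 and 3 members rose with 1 array left out, and 8 rose in the fit of the 2 groups alone. Those called were the death ligand Fasl (2.88 ± 0.66, adjusted p = 0.0226), the costimulatory ligands Tnfsf9 (2.07 ± 0.13, adjusted p = 0.000672), Tnfsf8 (1.95 ± 0.37) and Tnfsf14 (1.91 ± 0.48), and Tnfsf11 (1.48 ± 0.12), the RANK ligand through which T cells act on medullary epithelium. 8 of the 8 had both Nr4a-TKO arrays above the other 6. Among 10 cytotoxic granule genes 4 rose and 0 fell (median 1.27). 1, 2, 1 and 2 members rose with 1 array left out. Gzmb, encoding granzyme B, read -0.31 and 0.31 on the WT Treg arrays and 6.38 and 5.77 on the Nr4a-TKO arrays (6.08 ± 0.97, adjusted p = 0.00789), and Nkg7 (2.63 ± 0.69, adjusted p = 0.0331) and the granule proteoglycan Srgn (1.69 ± 0.30, adjusted p = 0.0108) rose with it, while perforin, Prf1, differed by 0.86 ± 0.35 (adjusted p = 0.103). Cxcl10, Cxcl9, Fasl, Tnfsf14, Cst7 and Nkg7 lost the call without any 1 of the 4 arrays, with adjusted p of up to 0.138, and Ccl3 did so without either Nr4a-TKO array or WT Treg replicate 2 (up to 0.079). Ccl4 lost it without Nr4a-TKO replicate 1 or either WT Treg array (up to 0.0603), and Cxcl16 did so without Nr4a-TKO replicate 1 (up to 0.0692). Tnfsf8 lost it without either Nr4a-TKO array or WT Treg replicate 1 (up to 0.066), and Srgn did so without Nr4a-TKO replicate 1 or WT Treg replicate 1 (up to 0.0601).

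Co-inhibitory receptor genes rose more often than they fell. Of 18 10 rose and 2 fell (median 0.83). 4, 9, 6 and 4 members rose and 1 fell with 1 array left out, and 1 fell in the fit of the 2 groups alone. Lag3, a receptor for MHC class II that restrains T cells, read -0.31 and -0.38 on the WT Treg arrays and 4.45 and 4.41 on the Nr4a-TKO arrays (4.77 ± 0.84, adjusted p = 0.0106). Lilrb4a, an inhibitory immunoglobulin-like receptor, read 0.91 and 0.58 on the WT Treg arrays and 5.75 and 5.35 on the Nr4a-TKO arrays (4.80 ± 0.82, adjusted p = 0.00974). Havcr2, encoding Tim-3 (2.33 ± 0.56, adjusted p = 0.0256), the PD-1 ligand genes Pdcd1lg2 (1.21 ± 0.28, adjusted p = 0.0241) and Cd274 (0.76 ± 0.10), Vsir (1.12 ± 0.14), Lair1 (0.91 ± 0.22), Btla (0.55 ± 0.08) and Cd200 (0.49 ± 0.08) rose. Pdcd1, encoding PD-1 itself, read 4.29 and 4.81 on the WT Treg arrays and 5.07 and 5.21 on the Nr4a-TKO arrays and did not pass (0.59 ± 0.24, adjusted p = 0.103). Cd96 went the other way, from 4.88 and 4.84 to 2.49 and 2.76 (-2.23 ± 0.11, adjusted p = 0.000468), and Cd244a was slightly lower (-0.25 ± 0.07). Tigit, which binds the same ligand as Cd96, read -0.24 and -0.09 on the WT Treg arrays and 1.51 and 1.03 on the Nr4a-TKO arrays, with adjusted p = 0.358 in the fit of all groups and 0.018 in the fit of the 2 alone. In the costimulation list 4 of 12 rose and 2 fell (median 0.13). 1, 2, 1 and 2 members rose and 1 fell with 1 array left out, and 1 fell in the fit of the 2 groups alone. Icos and the SLAM family genes Slamf6 (0.78 ± 0.21), Slamf1 (0.46 ± 0.09) and Cd84 (0.43 ± 0.13) were higher, Cd86, a ligand of CD28 and CTLA-4, was lower (-2.06 ± 0.18, adjusted p = 0.0014), and Cd28 did not pass (0.35 ± 0.13). Havcr2, Pdcd1lg2, Cd244a, Slamf6 and Cd84 lost the call without any 1 of the 4 arrays, with adjusted p of up to 0.178, and Lag3 and Lilrb4a did so without Nr4a-TKO replicate 1 or WT Treg replicate 2 (up to 0.0551). Slamf1 lost it without Nr4a-TKO replicate 1 or WT Treg replicate 1 (up to 0.0735), and Lair1 did so without Nr4a-TKO replicate 1 or either WT Treg array (up to 0.113).

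Transcription factors of the naive state fell more often than they rose, while genes of thymic exit went both ways. Of 15 transcription factors of naive or quiescent T cells 9 were lower and 1 higher (median -0.84), and 8 had both Nr4a-TKO arrays below the other 6. 6, 9, 6 and 5 members fell with 1 array left out. Klf2, which drives the exit receptors, read 6.06 and 6.17 on the WT Treg arrays and 4.90 and 4.91 on the Nr4a-TKO arrays (-1.21 ± 0.07, adjusted p = 0.000588), and Foxo1, which acts upstream of Klf2 and Il7r, read 5.36 and 5.20 on the WT Treg arrays and 4.04 and 4.14 on the Nr4a-TKO arrays (-1.19 ± 0.11, adjusted p = 0.00148). Bach2, a repressor of effector genes (-1.22 ± 0.19, adjusted p = 0.00768), Foxp1 (-0.84 ± 0.11, adjusted p = 0.0044), Satb1 (-0.96 ± 0.28, adjusted p = 0.0439), Lef1 (-0.96 ± 0.26, adjusted p = 0.0359) and Sox4 (-2.17 ± 0.49, adjusted p = 0.0213) fell. Tcf7, the partner of Lef1, did not differ detectably (0.05 ± 0.16, adjusted p = 0.819). The inhibitors of E proteins moved apart. Id2 rose from 2.35 and 2.52 to 5.99 and 5.99 (3.55 ± 0.48, adjusted p = 0.00493) and Id3 fell from 4.22 and 4.03 to 2.27 and 2.99 (-1.49 ± 0.23, adjusted p = 0.00732).

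Among 19 genes of thymic exit and maturation 6 fell and 4 rose (median -0.0044). S1pr1, the receptor that lets T cells leave the thymus, read 5.29 and 5.22 on the WT Treg arrays and 3.20 and 3.19 on the Nr4a-TKO arrays (-2.06 ± 0.06, adjusted p = 0.000202), below all other arrays. The lymph node homing receptor Ccr7 (-1.52 ± 0.24, adjusted p = 0.00778) and S1pr4 (-0.62 ± 0.11) fell too. The maturation markers Ly6a, 3.45 and 3.70 on the WT Treg arrays and 7.09 and 7.17 on the Nr4a-TKO arrays (3.56 ± 0.48, adjusted p = 0.00474), and Ly6c1 (3.24 ± 0.5, adjusted p = 0.00717) rose, as did the IL-7 receptor gene Il7r, 2.97 and 3.66 on the WT Treg arrays and 5.10 and 5.36 on the Nr4a-TKO arrays (1.91 ± 0.25, adjusted p = 0.00436). Probes of the Ly6 family may share sequence with close relatives. The early activation marker Cd69 read 2.66 and 3.23 on the WT Treg arrays and 2.68 and 3.19 on the Nr4a-TKO arrays (-0.0044 ± 0.30). 7 of 14 chemokine receptors rose and 1 fell (median 1.13). 1, 5, 1 and 1 members rose and 1, 2, 1 and 1 fell with 1 array left out, and 2 fell in the fit of the 2 groups alone. Ccr3, Ccr4 and Ccr10 were among those that rose, as were Ccr2 (3.71 ± 0.66, adjusted p = 0.0111), Cxcr6 (3.0 ± 0.81, adjusted p = 0.0359) and Cx3cr1 (2.83 ± 0.70, adjusted p = 0.0284), and Ccr7 was the one that fell. Cxcr3, a type 1 receptor, read 2.93 and 2.91 on the WT Treg arrays and 5.05 and 5.0 on the Nr4a-TKO arrays and did not pass (adjusted p = 0.131), and passed in the fit of the 2 groups alone (adjusted p = 0.0022). Of 17 genes of immature thymocytes 3 rose and 5 fell (median -0.53), the latter including Notch3 (-1.68 ± 0.37) and Bcl11b (-0.95 ± 0.15), and the recombination genes Dntt and Rag1 did not pass. 1, 3, 2 and 2 members rose and 2, 7, 2 and 3 fell with 1 array left out. Lef1, Satb1, S1pr4, Ccr3, Ccr4 and Ccr2 lost the call without Nr4a-TKO replicate 1 or either WT Treg array, with adjusted p of up to 0.165, and Cxcr6 and Cx3cr1 did so without any 1 of the 4 arrays (up to 0.128). Sox4 lost it without either WT Treg array (up to 0.0896), and Notch3 did so without Nr4a-TKO replicate 1 or WT Treg replicate 1 (up to 0.0951).

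IL-2 and STAT5 genes went both ways, and the 2 STAT5 genes fell. Of 18 such genes 6 rose and 4 fell (median 0.11). 4, 4, 2 and 2 members rose with 1 array left out. Stat5b read 5.25 and 5.18 on the WT Treg arrays and 4.18 and 4.30 on the Nr4a-TKO arrays (-0.98 ± 0.11, adjusted p = 0.00301), and Stat5a read 4.54 and 4.35 on the WT Treg arrays and 3.46 and 3.62 on the Nr4a-TKO arrays (-0.91 ± 0.10, adjusted p = 0.00302), in both cases below WT Treg and the Foxp3-KO arrays, at 4.92 and 5.17 and 4.0 and 4.13. The receptor chains Il2rb (-0.38 ± 0.26) and Il2rg (0.06 ± 0.09) did not pass, nor did Cish, a STAT5 target, at 5.32 and 5.47 on the WT Treg arrays and 5.57 and 5.47 on the Nr4a-TKO arrays (0.12 ± 0.11). The signal inhibitors Socs3 (1.62 ± 0.30, adjusted p = 0.0118) and Socs2 rose, Jak3 was slightly higher (0.36 ± 0.08) and Jak1 slightly lower (-0.38 ± 0.07). Of 447 named genes and list members with a promoter in the table, 10 hold the NBRE letters, and 5 of those were called, which are shown to let a reader see the site. They are windows of up to 80 bases around the match from RefSeq promoters of build GRCm38.p6, on the strand of the gene, with the match, read on the opposite strand as TGACCTTT, in capitals. The MHC class II gene H2-Eb1 rose (2.17 ± 0.53), Stat5b and Stat5a fell, and Zap70 rose and Irf9 fell, as given with their groups. In the neighbouring genes Stat5b and Stat5a the match stands 35 and 44 bases before the start, in the windows chr11:100822562-100822641 on the minus strand and chr11:100860404-100860483 on the plus strand. The other windows lie on the plus strand, H2-Eb1 at chr17:34305617-34305672, Zap70 at chr1:36778734-36778784 and Irf9 at chr14:55604408-55604487, with the match 238, 243 and 135 bases before the start.
Stat5b: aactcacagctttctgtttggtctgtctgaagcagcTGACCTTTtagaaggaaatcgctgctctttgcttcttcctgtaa
Stat5a: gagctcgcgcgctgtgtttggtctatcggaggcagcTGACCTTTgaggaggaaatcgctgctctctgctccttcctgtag
H2-Eb1: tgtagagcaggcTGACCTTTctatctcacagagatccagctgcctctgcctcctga
Zap70: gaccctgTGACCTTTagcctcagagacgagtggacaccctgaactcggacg
Irf9: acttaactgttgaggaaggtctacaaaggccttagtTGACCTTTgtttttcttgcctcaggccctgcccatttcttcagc
The 5 others with a match, Jchain, Eno1, Tcf7, Tcf12 and Il21r, were not called. AAAGGTCA, read on both strands, occurred in 1.51% of 32851 promoters, each from 250 bases before to 50 after the start. Counted by gene instead of by promoter, it was in 1.22% of the genes above background on all 4 arrays. It was in 0.66% of those called higher, 1.63% of those called lower and 1.27% of those not called. The AP-1 letters TGANTCA were in 7.81% of all promoters, the STAT letters TTCNNNGAA in 8.3% and the NF-kB letters GGANTTTCC in 1.25%. Jak1 lost the call without Nr4a-TKO replicate 1 or WT Treg replicate 2, with adjusted p of up to 0.0754, and Jak3 did so without Nr4a-TKO replicate 2 or either WT Treg array (up to 0.102). Socs3 lost it without Nr4a-TKO replicate 1 or either WT Treg array (up to 0.0603), and Socs2 did so without any 1 of the 4 arrays (up to 0.204).

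Genes near the antigen receptor and its negative regulators changed moderately. Of 20 proximal signalling genes 5 rose and 5 fell (median -0.03). 2, 2, 1 and 3 members rose and 1, 3, 2 and 0 fell with 1 array left out, and 3 rose in the fit of the 2 groups alone. Zap70, the kinase that binds the receptor complex, read 6.61 and 6.64 on the WT Treg arrays and 7.46 and 7.46 on the Nr4a-TKO arrays (0.83 ± 0.07, adjusted p = 0.00134), while the phospholipase Plcg1 (-0.79 ± 0.14, adjusted p = 0.0113) and the phosphatase CD45, Ptprc (-0.70 ± 0.14, adjusted p = 0.0154), fell. Of 14 genes in a list of tolerance ubiquitin ligases, diacylglycerol kinases and adaptors 7 fell and 3 rose (median -0.32). The 7 count Trat1, which was described above as helping to hold the receptor complex at the surface. 2, 2, 1 and 1 members rose and 5, 5, 5 and 4 fell with 1 array left out. Cblb (-0.85 ± 0.13, adjusted p = 0.00748), Nedd4l (-1.01 ± 0.15, adjusted p = 0.00597), Dgka (-0.92 ± 0.10, adjusted p = 0.00278) and Dgkz (-0.5 ± 0.14) were lower. The ligase GRAIL, Rnf128, read -0.96 and -0.72 on the WT Treg arrays and 2.01 and 2.31 on the Nr4a-TKO arrays, which passed in the fit of the 2 groups alone (adjusted p = 0.00417) and not with all groups (adjusted p = 0.0568). Early response genes of the receptor showed 11 higher and 5 lower of 25 (median 0.48). Egr2 read 3.62 and 3.75 on the WT Treg arrays and 4.33 and 4.29 on the Nr4a-TKO arrays (0.62 ± 0.09, adjusted p = 0.00525), and Fos (1.71 ± 0.23, adjusted p = 0.00486), Fosl2 (1.62 ± 0.16, adjusted p = 0.00191), Spry1 (1.57 ± 0.24, adjusted p = 0.00709) and Dusp6 (0.76 ± 0.07, adjusted p = 0.00179) rose. Myc (-0.90 ± 0.09, adjusted p = 0.00195), the phosphatase Dusp4 (-1.65 ± 0.19, adjusted p = 0.00312) and Tagap (-0.56 ± 0.07) fell. Plcg1 lost the call without Nr4a-TKO replicate 1 or either WT Treg array, with adjusted p of up to 0.0599, and Ptprc did so without Nr4a-TKO replicate 2 or WT Treg replicate 2 (up to 0.0811). Dgkz lost it without any 1 of the 4 arrays (up to 0.135).

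TNF receptor and NF-kB genes, high in regulatory T cells and their precursors, showed little difference. Of 24 1 rose, 5 fell and 18 did not pass (median 0.03). 5, 4, 3 and 3 members fell with 1 array left out. Nfkb2 read 3.0 and 2.98 on the WT Treg arrays and 3.02 and 3.03 on the Nr4a-TKO arrays (0.03 ± 0.08, adjusted p = 0.769), the adaptor Traf1 5.05 and 5.18 on the WT Treg arrays and 5.22 and 5.08 on the Nr4a-TKO arrays (0.03 ± 0.10), and the feedback inhibitor Tnfaip3 3.92 and 4.33 on the WT Treg arrays and 4.02 and 4.18 on the Nr4a-TKO arrays (-0.02 ± 0.16). Tnfrsf25 (-0.68 ± 0.10, adjusted p = 0.00568), Nfkbiz (-0.70 ± 0.12, adjusted p = 0.0106) and Birc3 (-0.81 ± 0.14, adjusted p = 0.0103) fell beside Fas and Tnfrsf18, and Cd40, a receptor of antigen-presenting cells, rose (2.13 ± 0.58, adjusted p = 0.0375). Of 23 other genes in the cytokine receptor list 7 rose, the ligand Csf1 among them, and 6 fell (median 0.11). 3, 4, 4 and 3 members rose with 1 array left out. Il12rb1 (1.91 ± 0.27, adjusted p = 0.00588), the decoy receptor Il1r2 (2.38 ± 0.66, adjusted p = 0.0393) and Il10ra (1.36 ± 0.28, adjusted p = 0.0162) were higher. The interferon receptor chains Ifnar1, 3.91 and 3.75 on the WT Treg arrays and 2.52 and 2.49 on the Nr4a-TKO arrays (-1.32 ± 0.09, adjusted p = 0.000818), and Ifngr2 (-1.08 ± 0.21, adjusted p = 0.0143) were lower, as were the IL-6 receptor genes Il6st (-1.14 ± 0.08, adjusted p = 0.000734) and Il6ra (-0.87 ± 0.10). Il1r1 was undetected in WT Treg and at least 31.1-fold higher. The IL-33 receptor gene Il1rl1 read 2.55 and 2.56 on the WT Treg arrays and 4.62 and 4.49 on the Nr4a-TKO arrays, a difference that passed in the fit of the 2 groups alone (adjusted p = 0.00291) and not with all groups (adjusted p = 0.238). Il10ra and Ifngr2 lost the call without Nr4a-TKO replicate 1 or either WT Treg array, with adjusted p of up to 0.082, and Birc3 did so without either WT Treg array (up to 0.0532). Cd40 lost it without either Nr4a-TKO array or WT Treg replicate 2 (up to 0.161), and Il1r2 did so without any 1 of the 4 arrays (up to 0.138).

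Interferon-stimulated genes fell more often than they rose. Of 23 12 fell and 3 rose (median -0.5), and 15 had both Nr4a-TKO arrays below the other 6. Ifit1, which binds foreign RNA, read 2.27 and 2.11 on the WT Treg arrays and 0.76 and 0.79 on the Nr4a-TKO arrays (-1.41 ± 0.18, adjusted p = 0.00392), with 2.02 and 2.56 in Foxp3-KO and 1.82 and 1.84 in WT Tconv. Oasl2 (-1.54 ± 0.11, adjusted p = 0.000784), Ifit3 (-1.21 ± 0.13, adjusted p = 0.00232), Ifit2 (-1.08 ± 0.10, adjusted p = 0.00148) and the feedback protease Usp18 (-0.89 ± 0.12, adjusted p = 0.00486) fell. So did factors that carry the interferon signal, Irf7 (-0.93 ± 0.22, adjusted p = 0.0237) and Irf9, at 5.31 and 5.28 on the WT Treg arrays and 4.64 and 4.52 on the Nr4a-TKO arrays (-0.72 ± 0.08, adjusted p = 0.00293). Oas1a (0.74 ± 0.11), Isg20 (0.41 ± 0.06) and Ifi44 (0.61 ± 0.17) were the 3 that rose, and Isg15 did not pass (-0.26 ± 0.15). Irf7 lost the call without Nr4a-TKO replicate 1 or either WT Treg array, with adjusted p of up to 0.107, and Ifi44 did so without any 1 of the 4 arrays (up to 0.164).

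Genes of cell division were higher almost without exception. Of 25 DNA replication genes 24 rose and 0 fell (median 0.87), and of 21 mitosis genes 20 rose and 0 fell (median 1.32). Tyms and Cenpa were the members that did not pass. Mki67, the standard marker of cycling cells, read 3.71 and 3.73 on the WT Treg arrays and 5.29 and 5.13 on the Nr4a-TKO arrays (1.49 ± 0.10, adjusted p = 0.000672), and the replication helicase gene Mcm5 3.24 and 3.22 on the WT Treg arrays and 4.14 and 4.40 on the Nr4a-TKO arrays (1.04 ± 0.10, adjusted p = 0.00176). The ribonucleotide reductase subunit Rrm2 (1.89 ± 0.08, adjusted p = 0.000357), the mitotic kinase Cdk1 (1.52 ± 0.08, adjusted p = 0.000533) and cyclin Ccnb1 (1.54 ± 0.06, adjusted p = 0.000326) rose. A dimmer Cdk1 probe went the other way without passing (-0.88 ± 0.48, adjusted p = 0.201). WT Tconv stood near Nr4a-TKO, at 5.06 and 5.05 for Mki67 and 4.20 and 4.21 for Mcm5, and Foxp3-KO lay between, at 4.56 and 4.75 and 3.57 and 3.56. Accordingly 11 and 12 of the members had both Nr4a-TKO arrays above all the others. With 1 array left out 21 to 23 and 19 to 20 members were called higher.

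Of 20 glycolysis genes 13 rose and 2 fell (median 0.69). 1 member fell with any 1 array left out. Aldoa, encoding aldolase, read 6.72 and 6.78 on the WT Treg arrays and 8.21 and 8.18 on the Nr4a-TKO arrays (1.45 ± 0.09, adjusted p = 0.000622), Tpi1 3.37 and 3.26 on the WT Treg arrays and 5.0 and 4.95 on the Nr4a-TKO arrays (1.66 ± 0.10, adjusted p = 0.000644), and hexokinase Hk2 -1.52 and -1.49 on the WT Treg arrays and 0.40 and 0.35 on the Nr4a-TKO arrays (1.88 ± 0.24, adjusted p = 0.00411). The glucose transporter Slc2a1 (0.85 ± 0.08, adjusted p = 0.00179) and Pgam1 (1.17 ± 0.06, adjusted p = 0.00053) rose, and Pdk1, which encodes a pyruvate dehydrogenase kinase, fell (-1.02 ± 0.09, adjusted p = 0.00139). 14 of the 20 had both Nr4a-TKO arrays above the other 6. In cholesterol synthesis 1 of 19 rose and 4 fell (median 0.00069). 0, 2, 0 and 1 member fell with 1 array left out, and 2 rose in the fit of the 2 groups alone. Of 12 adenosine and purine genes 4 rose and 0 fell (median 0.55). The salvage enzyme Pnp (0.92 ± 0.14, adjusted p = 0.00717) and adenosine kinase Adk (0.59 ± 0.16) were higher. The ectoenzyme Entpd1 (CD39), which breaks down ATP outside the cell, read -1.92 and -2.5 on the WT Treg arrays and -0.16 and -0.59 on the Nr4a-TKO arrays and its partner Nt5e (CD73) 3.84 and 4.31 on the WT Treg arrays and 5.27 and 4.87 on the Nr4a-TKO arrays, and neither passed with all groups (adjusted p = 0.146 and 0.0736). Adk lost the call without any 1 of the 4 arrays, with adjusted p of up to 0.155.

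In the list of pro-apoptotic genes more members rose than fell, with the death receptor Fas among those that fell. The list also counts the cell cycle inhibitor Cdkn1a and the stress gene Gadd45b, which both rose. Of 21 members of that list 9 rose and 2 fell (median 0.20). 4, 6, 5 and 3 members rose with 1 array left out. Cdkn1a, the p21 inhibitor of the cell cycle, read -2.51 and -3.19 on the WT Treg arrays and 1.23 and 1.08 on the Nr4a-TKO arrays (4.01 ± 0.27, adjusted p = 0.000707), with -2.09 and -2.28 in Foxp3-KO. The BH3-only gene Pmaip1 (1.66 ± 0.34, adjusted p = 0.0172) and the stress gene Gadd45b (1.5 ± 0.16, adjusted p = 0.00255) rose. Bcl2l11, encoding Bim, the mediator of thymic deletion, read -1.92 and -1.31 on the WT Treg arrays and -2.27 and -2.11 on the Nr4a-TKO arrays and did not pass (-0.58 ± 0.22, adjusted p = 0.0929), nor did Bbc3 (-0.86 ± 0.26, adjusted p = 0.0508). Bcl2l11 passed with the mean of all its probes (-0.81, adjusted p = 0.0192) and without WT Treg replicate 1 (adjusted p = 0.0341). Bbc3 passed under 7 of 16 other settings, among them quantile normalization (adjusted p = 0.0462) and the intensity trend (adjusted p = 0.0262), and its adjusted p reached 0.2 without WT Treg replicate 2. The death receptor Fas read 4.0 and 4.02 on the WT Treg arrays and 2.88 and 2.68 on the Nr4a-TKO arrays (-1.23 ± 0.10, adjusted p = 0.00111) and the initiator Casp8 fell (-0.58 ± 0.07, adjusted p = 0.00349). Among 10 survival genes 3 rose and 4 fell (median -0.07). 1, 2, 1 and 1 members rose and 3, 3, 2 and 2 fell with 1 array left out. Bcl2 read 4.48 and 4.65 on the WT Treg arrays and 2.93 and 3.45 on the Nr4a-TKO arrays (-1.38 ± 0.18, adjusted p = 0.0047), below every other array, and Mcl1 (-0.67 ± 0.11, adjusted p = 0.00755) fell, while Bcl2l1, encoding Bcl-xL, did not differ detectably (0.07 ± 0.14) and Bcl2a1d rose (0.65 ± 0.15). Pmaip1 lost the call without Nr4a-TKO replicate 1 or either WT Treg array, with adjusted p of up to 0.0862, and Bcl2a1d did so without any 1 of the 4 arrays (up to 0.0952).

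**Figure D4:**
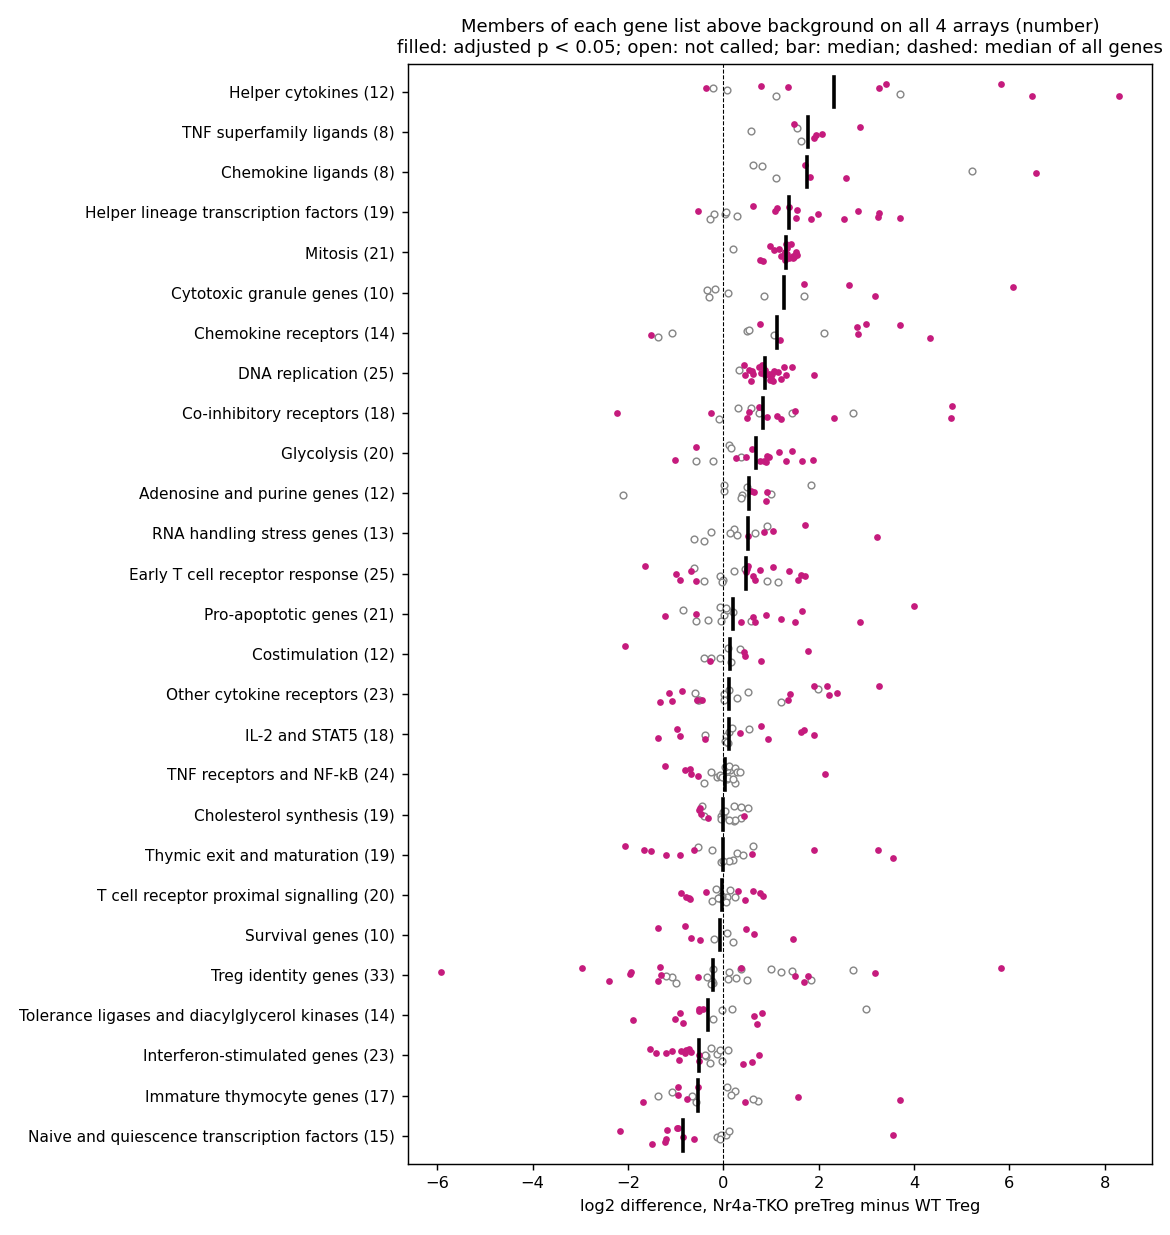
Each row is a gene list with its number of members above background on all 4 arrays in brackets, each point the log2 difference, Nr4a-TKO preTreg minus WT Treg, of a member, filled where it passed the test, and bars mark the median of the list. Cytokines, TNF ligands and helper transcription factors lie to the right, naive transcription factors and interferon-stimulated genes to the left of the dashed median of all genes at -0.01.

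Markers of other cells moved with these differences. The summed signal of all 14 B cell markers on the array was 84.3 and 21.3 times the 75th percentile on the Nr4a-TKO arrays, 7.91 and 5.53 on the WT Treg arrays, 27.1 and 8.06 in Foxp3-KO and 3.29 and 3.18 in WT Tconv. Ms4a1, encoding CD20, read 3.75 and 1.20 in Nr4a-TKO and -2.46 and -4.06 in WT Treg. It was above background on 1 of 2 WT Treg arrays, and 5 of the B cell markers were tested through Nr4a-TKO alone. Of 8 B cell markers above background on all 4 arrays 4 were higher, among them Blnk and Cr2. That count was 1 without Nr4a-TKO replicate 1, 6 without replicate 2 and 0 without either WT Treg array or in the fit of the 2 groups alone. Plasma cell markers summed to 93.3 and 61.4 against 32.5 and 36.1, and 4 of 5 were higher, of which Irf4, Prdm1 and Xbp1 are also T cell genes. 1, 4, 1 and 1 members were higher with 1 array left out. Jchain, which joins antibody molecules, read -0.41 and 0.04 on the WT Treg arrays and 3.93 and 1.09 on the Nr4a-TKO arrays and did not pass (adjusted p = 0.138). Macrophage and dendritic cell markers summed to 934 and 736 against 625 and 551, and 6 of 21 were higher and 1 lower. Those higher included the MHC class II genes H2-Ab1, 5.70 and 4.0 on the WT Treg arrays and 7.16 and 6.60 on the Nr4a-TKO arrays (2.03 ± 0.55, adjusted p = 0.0371), H2-Eb1 and Cd74. The complement gene C1qa read 0.57 and -1.28 on the WT Treg arrays and 2.95 and 1.74 on the Nr4a-TKO arrays (adjusted p = 0.11). The number of these markers called higher was 0 without Nr4a-TKO replicate 1, 7 without WT Treg replicate 1, and 1 without either of the other arrays or in the fit of the 2 groups alone. The part of these cells in the differences was not tested. Blnk, Cr2 and Xbp1 lost the call without Nr4a-TKO replicate 1 or either WT Treg array, with adjusted p of up to 0.157.

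Markers of NK and innate-like T cells summed to 115 and 113 in Nr4a-TKO, 28.7 and 22.5 in WT Treg, 60.1 and 59.4 in WT Tconv and 149.5 and 34.1 in Foxp3-KO. Of 11 above background on all 4 arrays 3 were higher and 0 lower, and 7 more were above background on both Nr4a-TKO arrays alone. 1, 1, 2 and 1 members were higher with 1 array left out, and 8 were higher in the fit of the 2 groups alone. Zbtb16, the PLZF factor of innate-like T cells that make type 2 and type 1 cytokines, read -2.95 and -3.60 on the WT Treg arrays and -1.41 and -1.17 on the Nr4a-TKO arrays, against 2.37 and 2.27 in WT Tconv. It rose over WT Treg (1.98 ± 0.23, adjusted p = 0.00313). Klra16 (3.83 ± 0.74, adjusted p = 0.0138) and Nkg7 were the other called members, and Klra probes may share sequence with relatives of that family. Of 5 CD8 T cell markers 3 were higher and 0 lower, and their sums were 6.92 and 7.67 against 2.77 and 2.5. 1, 1, 2 and 1 members were higher with 1 array left out. Cd8a read -1.85 and -2.64 on the WT Treg arrays and -0.87 and -0.48 on the Nr4a-TKO arrays. Granulocyte and mast cell markers summed to 2.63 and 2.19 against 6.76 and 3.78, with Kit lower (-2.45 ± 0.24, adjusted p = 0.00181) and 0 of 4 higher. Stroma markers summed to 2.25 and 2.27 against 2.44 and 2.42 (0 of 3 higher, 1 lower), and red cell markers to 0.81 and 0.52 against 0.489 and 0.411 (0 of 1 higher, 0 lower). Genes that respond to cell handling showed 5 of 13 higher and 0 lower (median 0.53), the AP-1 genes Fos, Fosb (1.05 ± 0.14, adjusted p = 0.00497) and Junb and the heat shock genes Hsp90aa1 and Hspa1a, the last at -3.79 and -2.89 on the WT Treg arrays and 1.32 and -1.55 on the Nr4a-TKO arrays. 2, 6, 2 and 3 members were higher with 1 array left out, and 2 were higher in the fit of the 2 groups alone. The part of all these marker and handling genes in the results was not tested. Klra16, Cd8a, H2-Ab1 and H2-Eb1 lost the call without either Nr4a-TKO array or WT Treg replicate 2, with adjusted p of up to 0.155, and Nkg7 and Ms4a1 did so without any 1 of the 4 arrays (up to 0.148). Hsp90aa1 and Hspa1a lost it without Nr4a-TKO replicate 1 or either WT Treg array (up to 0.168), and Junb did so without either Nr4a-TKO array or WT Treg replicate 1 (up to 0.109). Cd74 lost it without Nr4a-TKO replicate 1 or WT Treg replicate 2 (up to 0.0924).

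**Figure D5:**
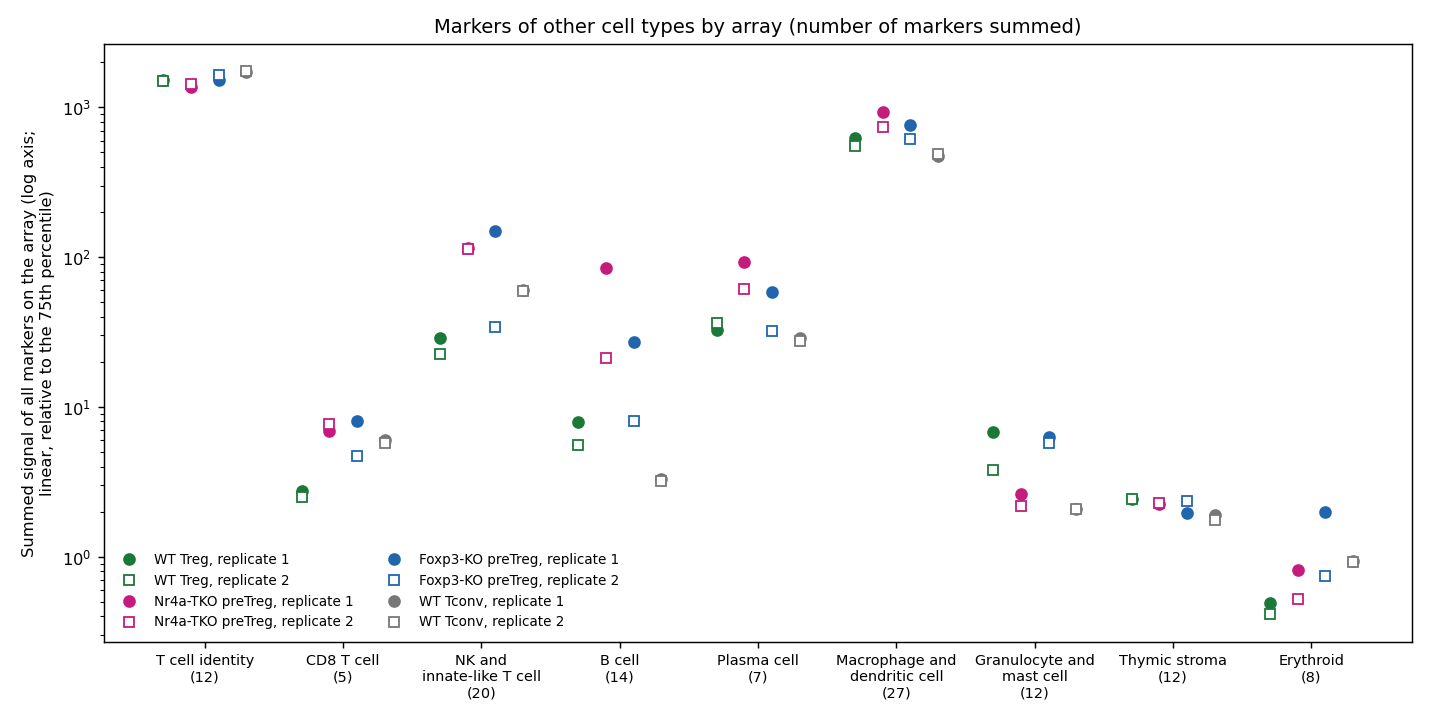
Points show, on a log scale, the summed linear signal of all markers on the array in each list of cell types on each of the 8 arrays, in units of the 75th percentile of the array, with filled circles for replicate 1 and open squares for replicate 2. T cell markers sum to 1378 on the lowest array and 1745 on the highest, while B cell markers reach 84.3 on Nr4a-TKO replicate 1 and 21.3 on replicate 2.

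The 15 largest increases among genes above background on all 4 arrays also included genes outside the cytokine lists. Slpi, a protease inhibitor of the 15 largest increases, read 4.88 and 0.92 on the Nr4a-TKO arrays (6.04 ± 1.38, adjusted p = 0.0221), and Retnla, a gene of alternatively activated macrophages that was at least 63.6-fold higher, 3.11 and 0.52, and both were higher on Nr4a-TKO replicate 1, which had the larger B cell and macrophage marker sums. The part of those cells in either gene was not tested. The others of the 15 largest increases read within 1 log2 unit of each other on the Nr4a-TKO arrays. They included the neuropeptide gene Calca (5.69 ± 0.54, adjusted p = 0.00169), the adhesion receptor Adgrg5 (5.61 ± 0.61, adjusted p = 0.00255), the short-chain fatty acid receptor Ffar2 (5.52 ± 0.30, adjusted p = 0.000516), Emp1 (5.22 ± 0.48, adjusted p = 0.00164), the steroid dehydrogenase Akr1c18 (5.06 ± 0.34, adjusted p = 0.000704), Podnl1 (4.99 ± 0.82), the leukotriene receptor Ltb4r1 (4.89 ± 0.84) and the membrane gene Ifitm1 (5.08 ± 1.25). Slpi lost the call without Nr4a-TKO replicate 1 or either WT Treg array, with adjusted p of up to 0.0986, and Ltb4r1 did so without Nr4a-TKO replicate 1 or WT Treg replicate 1 (up to 0.0507). Ifitm1 lost it without any 1 of the 4 arrays (up to 0.108).

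Nr4a-TKO and Foxp3-KO preTreg share the WT Treg arrays as their reference, so the 2 precursor groups were set against each other directly. 4548 genes were called between them (34.5% of those tested), 2480 higher and 2068 lower in Nr4a-TKO. In a fit of these 2 groups alone 975 were called, with 2045 without Nr4a-TKO replicate 1 and 2636 without replicate 2 in the fit of all groups. 1643 genes were higher in Nr4a-TKO than in both WT Treg and Foxp3-KO, and 1438 were lower than in both. The lists are counted here over genes above background on both arrays of each of these 2 groups, of which 17.4% were called higher and 16.6% lower, with counts in the order without Nr4a-TKO replicate 1, its replicate 2, Foxp3-KO replicate 1 and its replicate 2. Of 29 regulatory T cell genes 15 were higher in Nr4a-TKO than in Foxp3-KO and 5 lower, and the lower ones included Ikzf4 (-2.29 ± 0.17, adjusted p = 0.00135) and Ikzf2 (-1.02 ± 0.15, adjusted p = 0.00739). 8, 9, 17 and 12 members were higher with 1 array left out, and 5 were higher and 3 were lower in the fit of the 2 groups alone. Il2ra was higher than in Foxp3-KO (1.97 ± 0.23, adjusted p = 0.00406). Of 19 helper transcription factors 13 were higher and 2 lower. 8, 9, 14 and 14 members were higher with 1 array left out, and 5 were higher in the fit of the 2 groups alone. Of 13 helper cytokines 5 were higher, of 8 TNF superfamily ligands 5, of 7 chemokine ligands 2 and of 11 cytotoxic granule genes 3, and 0 were lower. In the fit of the 2 groups alone 4, 1, 0 and 0 were higher. The granule genes had a median of 0.03. Chemokine ligands summed to 123 and 13.7 on the Foxp3-KO arrays, against 295 and 179 in Nr4a-TKO. Granule genes summed to 251 and 117 against 496 and 424. Of 15 naive transcription factors 8 were lower and 1 higher. 2 members were lower in the fit of the 2 groups alone. Of 23 interferon-stimulated genes 14 were lower and 3 higher. 1, 1, 3 and 2 members were higher with 1 array left out, and 0 were higher and 6 were lower in the fit of the 2 groups alone. Stat5b was lower (-0.80 ± 0.11, adjusted p = 0.00631), as was S1pr1 (-1.73 ± 0.06, adjusted p = 0.000274). 18 of 25 replication genes and 8 of 21 mitosis genes were higher in Nr4a-TKO. 2 replication genes were higher in the fit of the 2 groups alone. 0, 3, 5 and 10 mitosis genes were higher with 1 array left out, and 0 mitosis genes were higher in the fit of the 2 groups alone.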

How the data were processed

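Single-colour Agilent arrays were hybridised with Cy3-labelled RNA from sorted mouse thymus cells, 2 biological replicates in each of 4 groups. Per the file headers, signals were extracted with Agilent Feature Extraction 10.7.1.1 on a design of build mm9. The deposited values are intensities, already background-subtracted, and the deposited detection flags (other values, 0 or 1) say whether a probe is well above background. Each array's 75th percentile of log2 intensity was subtracted. Probes were named from RefSeq accessions (28026 of 55681 had a symbol, and 1595 accessions had none), and the brightest probe stood for a gene. Genes well above background on both arrays of at least 1 of the 2 groups were tested with limma 3.58.1 in R 4.3.3, with all 4 groups in one fit, Benjamini-Hochberg adjustment and a threshold of 0.05. The main test compares Nr4a-TKO preTreg with WT Treg, and a further contrast compares it with Foxp3-KO preTreg. The script was tested on simulated data. A gene undetected in 1 group has a bound, the bright group's mean over the higher of the array's lowest detected signal and the gene's own. A probe's own detection limit can lie above that signal, so the bound is not strict.

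Named genes were the Nr4a receptors, Foxp3 and the gate genes, the 15 largest called increases and decreases among genes above background on all 4 arrays with separated replicates, the 5 largest bounds in each direction, members of the gene lists, and the 5 largest differences from Foxp3-KO at each end. Promoters shown are those of named, called genes with an NBRE match, outside the chromosome left out as stated above. The comparison, the members and the lists were chosen with earlier results of these data known. Alternatives covered scaling, background correction, the deposited matrix, filters, probe choice, variance models, the groups fitted, the replicate number as a block and each array left out. Figures were drawn with matplotlib 3.10.9. Some members of the lists are counted but not reported by name here.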

Additional observations from a re-analysis of the deposited data

Results flagged for a closer look

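A direct contrast between the 2 precursor groups singled out 10 genes, the 5 highest and the 5 lowest in Nr4a-TKO preTreg against Foxp3-KO preTreg among genes that also differed from WT Treg, all from limma. Ccl8 was 8.46 ± 1.24 higher in Nr4a-TKO on the log2 scale (adjusted p = 0.00707). Il13 was 7.82 ± 0.10 higher (adjusted p = 1.3e-05) and Il10 7.52 ± 1.33 higher (adjusted p = 0.0117). Iglon5 was 7.17 ± 0.31 higher (adjusted p = 0.000349) and Il17a 6.82 ± 1.38 higher (adjusted p = 0.017). Ccl8, Il10, Iglon5 and Il17a were above background on 1 of 2 Foxp3-KO arrays, so their fitted differences depend on signals near background. Arhgap20 differed by -5.96 ± 0.20 (adjusted p = 0.000229), Slc22a2 by -5.52 ± 0.17 (adjusted p = 0.000229) and Pyroxd2 by -5.17 ± 0.44 (adjusted p = 0.00179). Adamtsl2 differed by -4.91 ± 0.88 (adjusted p = 0.0121) and Lypd6b by -3.55 ± 0.58 (adjusted p = 0.00951). Adamtsl2 was above background on 1 of 2 Nr4a-TKO arrays, where it read -6.51 and -3.74, so its fitted difference depends on signals near background too. Its log2 difference from WT Treg was -4.09 and became -1.54 with normexp background correction, -2.71 without Nr4a-TKO replicate 1 and -5.48 without replicate 2. Adamtsl2 lost its call against WT Treg without either WT Treg array and in the fit of the 2 groups alone (adjusted p = 0.057). Iglon5 lost that call without Nr4a-TKO replicate 2 or either WT Treg array, and Lypd6b without Nr4a-TKO replicate 1 or either WT Treg array.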

How the results depend on the processing

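The counts of genes higher and lower against WT Treg stayed within 1.5 times of the values given under every alternative other than the following ones. A 2-fold minimum left 1190 higher and 554 lower, and scaling by the median left 1394 lower. Leaving out 1 of the 4 arrays gave 1249 to 1788 higher and 934 to 1368 lower. Against Foxp3-KO 4548 genes became 2827 with array weights by group, 975 in a fit of those 2 groups and 1545 with the 2-fold minimum, and 2045 to 5336 with 1 array left out. With the replicate number as a block 2574 genes were higher and 1973 lower than in WT Treg, and 4157 differed from Foxp3-KO. The 2 pairs share only a number, and deviations of same-numbered arrays correlated at 0.155 for Nr4a-TKO with WT Treg and 0.286 for Nr4a-TKO with Foxp3-KO. The list counts with 1 array left out, in fits of 2 groups alone and against Foxp3-KO over genes detected in both of those groups were added after seeing the data. Of 258 named genes 209 were called, and the replicate block ended 9 calls among them and added 4, Bbc3, Bcl2l11, C1qa and Tyms. The fit of the 2 groups alone ended 24 calls and added 9. Among the calls it ended were Adk, Cd40, Cd84, Cd244a, Blnk, Cr2, Cd74, H2-Ab1 and H2-Eb1, with adjusted p of up to 0.0914. Without the filter on dim probes 33 calls ended, and each array left out ended more than that. Of 49 named genes without a call 16 passed under 1 or more of the other settings. The called genes Ahr and Cdk1 changed sign on another probe. The other sign changes were of genes with no call. With another probe of the gene the log2 differences were -0.051 for Ahr, -0.16 for Bcl2l1, -0.31 for Cd4, -0.88 for Cdk1, 0.21 for Il2rb, 0.15 for Tcf12, -0.15 for Tcf7 and 0.065 for Zbtb7b. With the mean of all probes of a gene the log2 differences were -0.045 for Bcl2l1, -0.12 for Cd4, 0.053 for Tcf12 and -0.048 for Tcf7. With scaling by the median the log2 differences were 0.067 for Cd69, 0.046 for Lck, 0.031 for Tcf12 and 0.049 for Tnfaip3. With quantile normalization the log2 differences were -0.0063 for Cd4, -0.033 for Gata3, -0.045 for Il21r, -0.017 for Il2rg, 0.069 for Lck, -0.020 for Nfkb2, -0.018 for Tcf7 and -0.052 for Traf1. With 1 of the 4 arrays left out the range was -0.079 to 0.22 for Bcl2l1, -0.52 to 0.12 for Bcl6, -0.29 to 0.28 for Cd69, -0.47 to 0.013 for Cd83, -0.027 to 0.059 for Il21r, -0.15 to 0.36 for Il2ra, -0.057 to 0.0061 for Lck, -1.28 to 0.088 for Nr4a3, -0.037 to 0.21 for Osm, -1.34 to 0.21 for Rag1, -0.17 to 0.086 for Tcf12, -0.15 to 0.25 for Tcf7, -0.23 to 0.19 for Tnfaip3 and -0.033 to 0.10 for Traf1. The cause of these changes was not tested. No wild-type precursors were measured, slide row follows group, and 2 arrays a group limit every estimate.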
